A study of Mus musculus with 6 samples.

Results

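Replication-dependent histone genes supply the histone proteins that package newly made DNA. In these data they are the genes whose symbols begin with Hist1h, Hist2h, Hist3h or Hist4h and that were selected on their reads, with at least 5 summed over the 6 libraries. Of 70 such rows in a table of 54532 genes, 56 met this minimum. They comprise 10 H3, 12 H4, 14 H2A, 15 H2B and 5 H1 genes, of which 54 are annotated as protein coding and 2, Hist1h2aj and Hist3h2bb-ps, as pseudogenes. The libraries come from bulk RNA of C57BL/6 mouse spleen lymphocytes labelled as naive CD4+ T cells. They were cultured for 72 h with CD3/CD28 beads, IL-2 and antibodies against IFNγ and IL-4, together with NETs in 3 libraries and with vehicle in the other 3. NETs, neutrophil extracellular traps, are fibres of chromatin and granule proteins expelled by neutrophils, and histones are among their proteins. The dose and origin of the NETs, the age and number of the mice, and any step that selects polyadenylated RNA are unstated in the labels. Nothing in the labels ties replicates to separate mice or cultures, so the p-values below measure the spread between these libraries, which may be technical.

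Histones H3 and H4 form the tetramer at the core of the nucleosome, H2A and H2B form the dimers that flank it, and H1 binds the linker DNA between nucleosomes. Their replication-dependent genes lie in clusters, mostly lack introns, and are transcribed as cells copy their DNA. The mRNAs are the known exception to polyadenylation: a conserved stem-loop, bound by the stem-loop binding protein SLBP, takes the place of the poly(A) tail, and the U7 small nuclear ribonucleoprotein guides the cut after it. Some of these genes also make polyadenylated transcripts in cells that have left the cycle.

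The stem-loop is the sequence by which this RNA family is known, and it was present in the annotated transcripts of 40 of the 56 genes. The search was for the 16-base consensus of the histone stem-loop in the sense strand of GENCODE M21 transcripts (GRCm38). Among all 141767 transcripts 0.221% held a match, and among all 55450 genes 0.362% did. Printed below, in DNA letters and 5′ to 3′, are examples of the variants among the genes the results turn on, with the 16 bases of the stem-loop in capitals and 5 bases on either side.
Hist1h3c: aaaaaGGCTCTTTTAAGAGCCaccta
Hist1h4i: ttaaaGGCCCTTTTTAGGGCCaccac
Hist1h4j: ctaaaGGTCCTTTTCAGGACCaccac
Hist1h4h: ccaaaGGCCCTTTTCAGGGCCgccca
Hist1h2ag: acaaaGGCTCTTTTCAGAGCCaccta
Hist3h2ba: ccaaaGGCTCTTTTCAGAGCCacctt
Hist1h1c: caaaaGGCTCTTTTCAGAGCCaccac
The form shown for Hist1h2ag, Hist3h2ba and Hist1h1c was the commonest, with 22 genes of the H1, H2A, H2B and H3 classes and no H4 gene. The form shown for Hist1h4h was held by 7 genes, all of class H4, and that of Hist1h4i by it and Hist2h4. The form of Hist1h3c was shared by 5 genes of the H2B and H3 classes, and that of Hist1h4j was found in no other member. Their positions are chr13:23745047-23745062 on the minus strand for Hist1h3c, chr13:22040966-22040981 on the minus strand for Hist1h4i and chr13:21735437-21735452 on the plus strand for Hist1h4j. That of Hist1h4h is chr13:23531458-23531473 on the plus strand, and that of Hist1h2ag is chr13:22042483-22042498 on the minus strand. Hist3h2ba holds it at chr11:58949349-58949364 and Hist1h1c at chr13:23739512-23739527, both on the plus strand. All lie in 3′ untranslated sequence, beyond the stop codon. The other 16 genes had no match in any annotated transcript, and for 11 of them the model ends without any 3′ untranslated sequence. These 11 include the 2 pseudogenes, for which no stop codon is annotated. In Hist1h2ah and Hist1h2af the model ends 2 and 1 bases after the stop codon. No match says only that these letters are not in the annotated transcript.

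Reads over these genes were few. The 56 genes together held 10697 of 103114435 counts (0.0104%), with a median of 80.0 reads per gene over the 6 libraries, and 31 genes held under 100. The rule used these summed reads, so the following levels are a description. Just inside the minimum lay Hist1h2bf with 6 reads, and just outside it were Hist1h2bq, Hist2h2ab and Hist1h4b with 3 reads each. A further 8 rows had no read at all. Hist2h2be alone supplied 19.7% of the members' reads, and the top 10 genes 65.2%. Expressed per gene length, as FPKM in the authors' deposited table, the highest mean level over the 6 libraries was that of Hist1h4i at 13.8, followed by Hist3h2ba at 12.7, Hist2h2be at 7.82, Hist1h2ai at 6.78 and Hist1h1c at 6.21. The leading pair cannot be ordered beyond the spread of the libraries: Hist1h4i had 16.6 ± 1.10 FPKM in NETs libraries and 10.95 ± 2.71 in vehicle libraries, and Hist3h2ba 9.27 ± 1.48 in NETs libraries and 16.04 ± 6.27 in vehicle libraries (SD, n = 3 each). The genes lie mainly in the Hist1 cluster, with 48 members between positions 21715763 and 23764406 of chromosome 13. Another 4 lie in the Hist2 cluster on chromosome 3, 3 in the Hist3 cluster on chromosome 11 and 1, Hist4h4, on chromosome 6 (coordinates of the deposited table, GRCm38).

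Library totals were 17170867, 18394828 and 17148910 counts in NETs replicates 1 to 3 and 18655997, 15657622 and 16086211 counts in vehicle replicates 1 to 3. T cell identity was clear in all of them: the 11 defining T cell genes on the list used here summed to between 4879 and 5286 CPM (counts scaled to 1000000 counts of the library) in NETs libraries and between 4904 and 5547 CPM in vehicle libraries. The 16 neutrophil markers summed to 5.47, 7.07 and 7.11 CPM in NETs replicates 1 to 3 and to 3.75, 4.79 and 3.61 CPM in vehicle replicates 1 to 3. Among these, S100a9, a calcium-binding protein of neutrophil granules and cytosol, had 0.932, 1.31 and 1.17 CPM in the NETs libraries and no read in the vehicle libraries. Its adjusted p was 0.170 by edgeR, while limma-voom called it, as the only gene it called among 13900. Ly6g, the surface marker that defines mouse neutrophils, was at 0 in all 6. Whether neutrophil RNA had a part in the histone values was not tested. In bulk RNA, fewer cells of a type and less RNA per cell cannot be told apart.

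No histone gene differed between NETs and vehicle past an adjusted p of 0.05, while most of the family had higher values in NETs libraries. Among the 20520 genes with at least 5 reads, edgeR's quasi-likelihood test called 8 (0.039%) and none of the 56 histone genes. The smallest adjusted p of a histone gene was 0.0975, for Hist1h4j. Limma-voom called 0 of the 56. DESeq2 gave an adjusted p to 1 of them, Hist2h2be, and did not call it. Without its filter on mean counts, an alternative added after seeing the data, all 56 had an adjusted p and 0 were called, against 38 of 20520 genes (0.185%). Without vehicle replicate 3, edgeR called 4 of the 56 (Hist3h2ba, Hist1h4j, Hist1h2af and Hist1h2bg) among 1041 of 20484 genes (5.08%). Log2 fold changes (NETs over vehicle) were above 0 for 43 of the 56 histone genes, where 50.3% of all genes tested were above 0, and their median was 0.59, against 0.00 for all genes tested. At an unadjusted p under 0.05, 11 of the 56 had higher values in NETs libraries, against 5.8% of all genes, and 1 of the 56, Hist3h2ba, had lower values, against 5.02% of all genes. For 12 of the 56 every NETs library lay above every vehicle library, an arrangement found for 6.29% of all genes. Hist1h4j, Hist1h2af and Hist1h2bb, which are among these, met the minimum of 5 reads only through NETs libraries. Their separation, fold changes and p-values are therefore a description. They held 3, 4 and 3 reads in vehicle libraries. Hist1h2bl and Hist2h3c2 also met it that way, with 3 and 1 reads in vehicle libraries. All of these genes are among the 43 above 0, and Hist1h4j and Hist1h2af are also among the 11, so those counts are in part fixed by the rule. Hist1h2aj, Hist1h2ah and Hist1h2ad met it through vehicle libraries, with 3, 3 and 4 reads in NETs libraries, and had values below 0. None of the 56 lay wholly below, against 7.71% of all genes. With the stricter filter of edgeR, which kept 13900 genes, 32 histone genes were tested and 0 were called, as were 0% of all genes. At an unadjusted p under 0.05 in that fit, 8 of these had higher values (6.72% of all genes) and 1 had lower values (6.06% of all genes). NETs libraries lay wholly above vehicle libraries for 8 of the 32 (7.68% of all genes) and wholly below for 0 (9.04% of all genes). Near-identical histone genes can share reads, so these counts are not over independent genes.

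**Figure D1:**
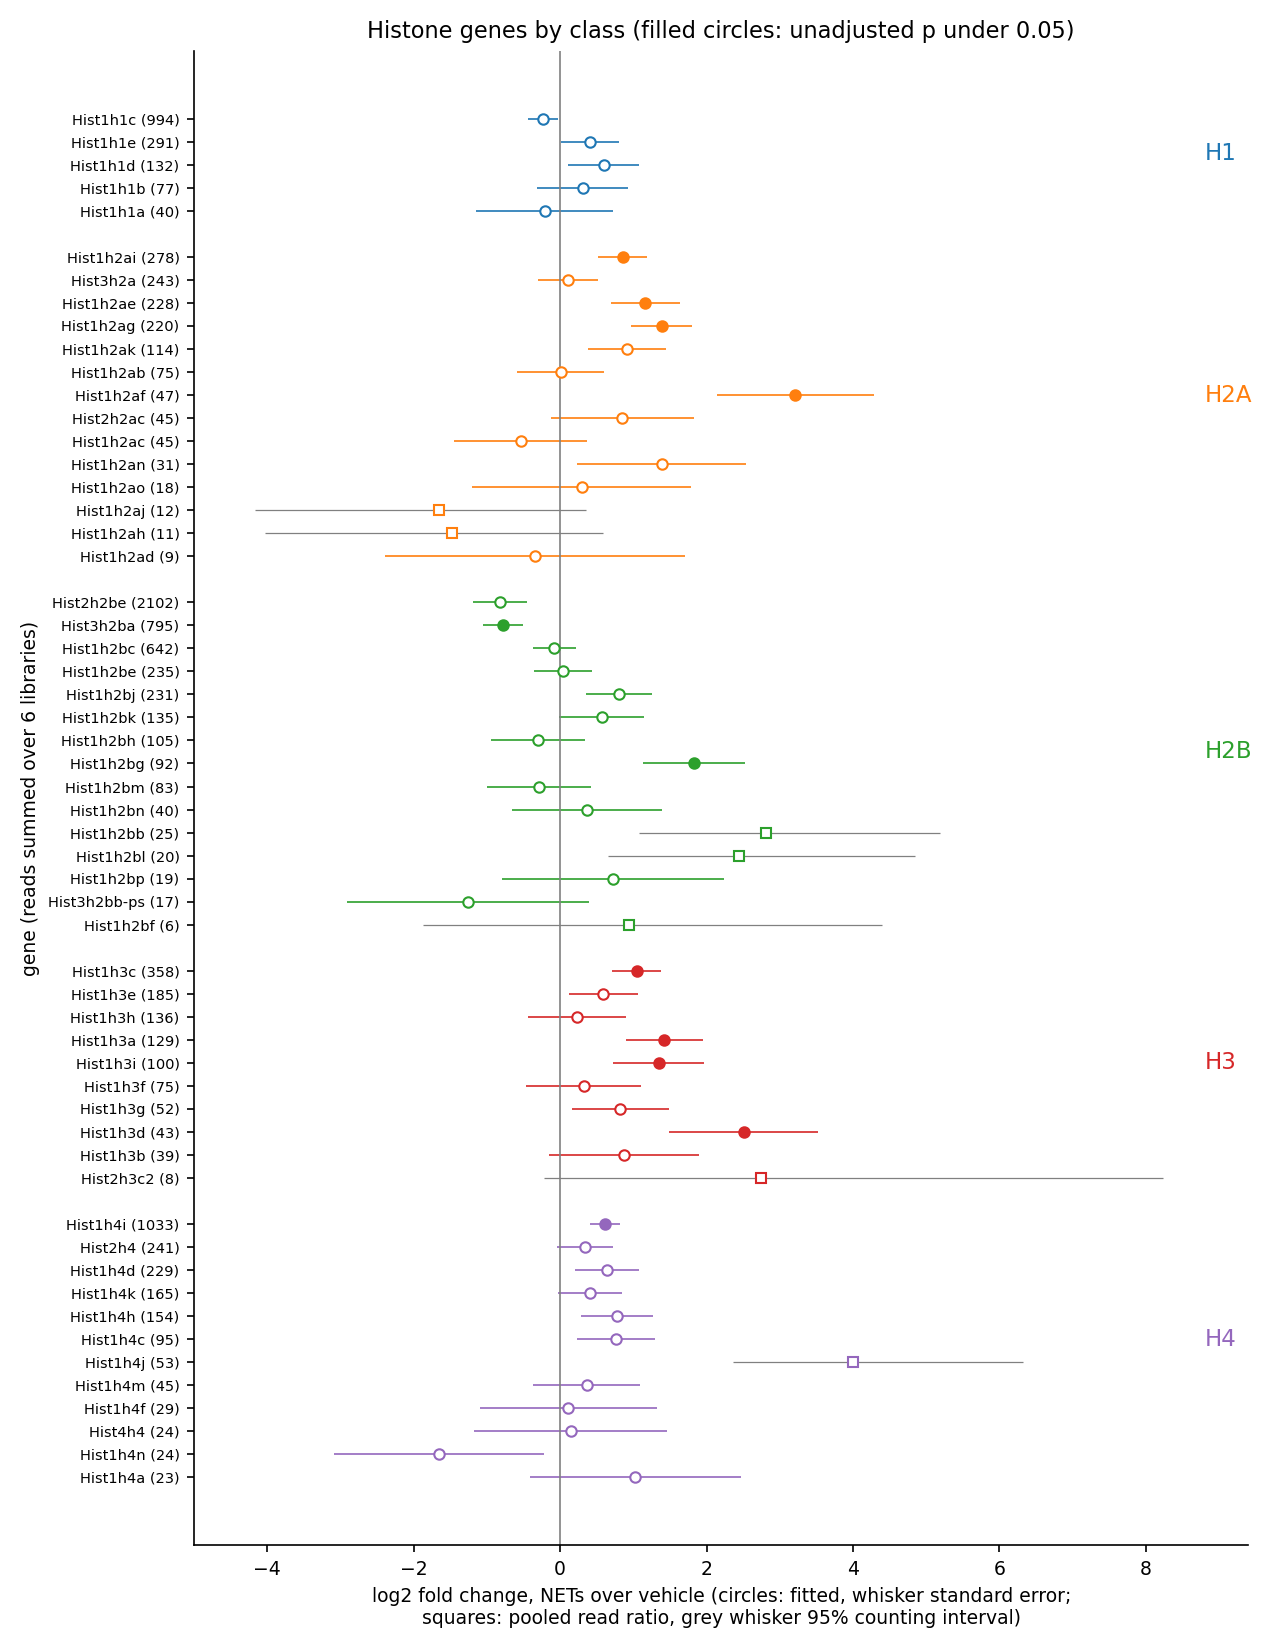
Log2 fold change (NETs over vehicle) of the 56 histone genes by class, with the reads of each gene summed over the 6 libraries in parentheses. Circles are fitted values with their standard error, filled where the unadjusted p was under 0.05, and squares are the pooled read ratios, with 95% counting intervals, of the 7 genes with 3 reads or fewer in a group. All 10 H3 genes and 11 of 12 H4 genes lie right of 0, while the H2B genes with most reads, Hist2h2be and Hist3h2ba, lie left of it.

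The precision behind these values was low and depended on the reads. The median standard error of the log2 fold changes was 1.42 for the 23 genes under 50 reads and 0.39 for the 15 genes with 200 reads or more, against 0.15 over the genes kept by the stricter filter. Among the 15 genes with 200 reads or more, 11 had values above 0. Below, adjusted p-values are those of the edgeR quasi-likelihood fit, adjusted by Benjamini-Hochberg over all its genes, and levels are CPM.

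Summed by class, which is less open to reads being placed on one copy or another, the H3, H4 and H2A genes were higher in NETs libraries than in any vehicle library, and the H1 and H2B classes overlapped. H3 genes summed to 11.6, 19.95 and 10.4 CPM in NETs replicates 1 to 3, against 9.22, 7.09 and 6.03 CPM in vehicle replicates 1 to 3, a ratio of group means of 1.88. NETs replicate 2 stood above the other NETs libraries, and without it the log2 ratio was 0.56 in place of 0.91. H4 genes summed to 23.9, 26.7 and 22.9 CPM in the NETs libraries, against 14.96, 20.25 and 13.86 CPM in the vehicle libraries, a log2 ratio of 0.59. H2A genes summed to 17.0, 16.4 and 16.4 CPM in the NETs libraries, against 10.99, 10.73 and 7.96 CPM in the vehicle libraries, a ratio of 1.68. The NETs libraries of the H2A class lay close together, at 16.6 ± 0.349 CPM, against 9.89 ± 1.68 CPM in vehicle libraries (SD, n = 3 each). H1 genes differed less than their spread, with 13.6, 16.5 and 14.2 CPM in the NETs libraries and 13.9, 18.7 and 12.5 CPM in the vehicle libraries. H2B genes summed to 26.0, 44.0 and 42.9 CPM in the NETs libraries, against 53.4, 66.5 and 32.1 CPM in the vehicle libraries, a ratio of 0.743 with overlapping groups. Over all 56 genes the sums were 92.2, 123.6 and 106.8 CPM in the NETs libraries and 102.5, 123.3 and 72.4 CPM in the vehicle libraries, a ratio of 1.08. The classes were not tested as sums, since the genes were chosen with results of these data known.

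**Figure D2:**
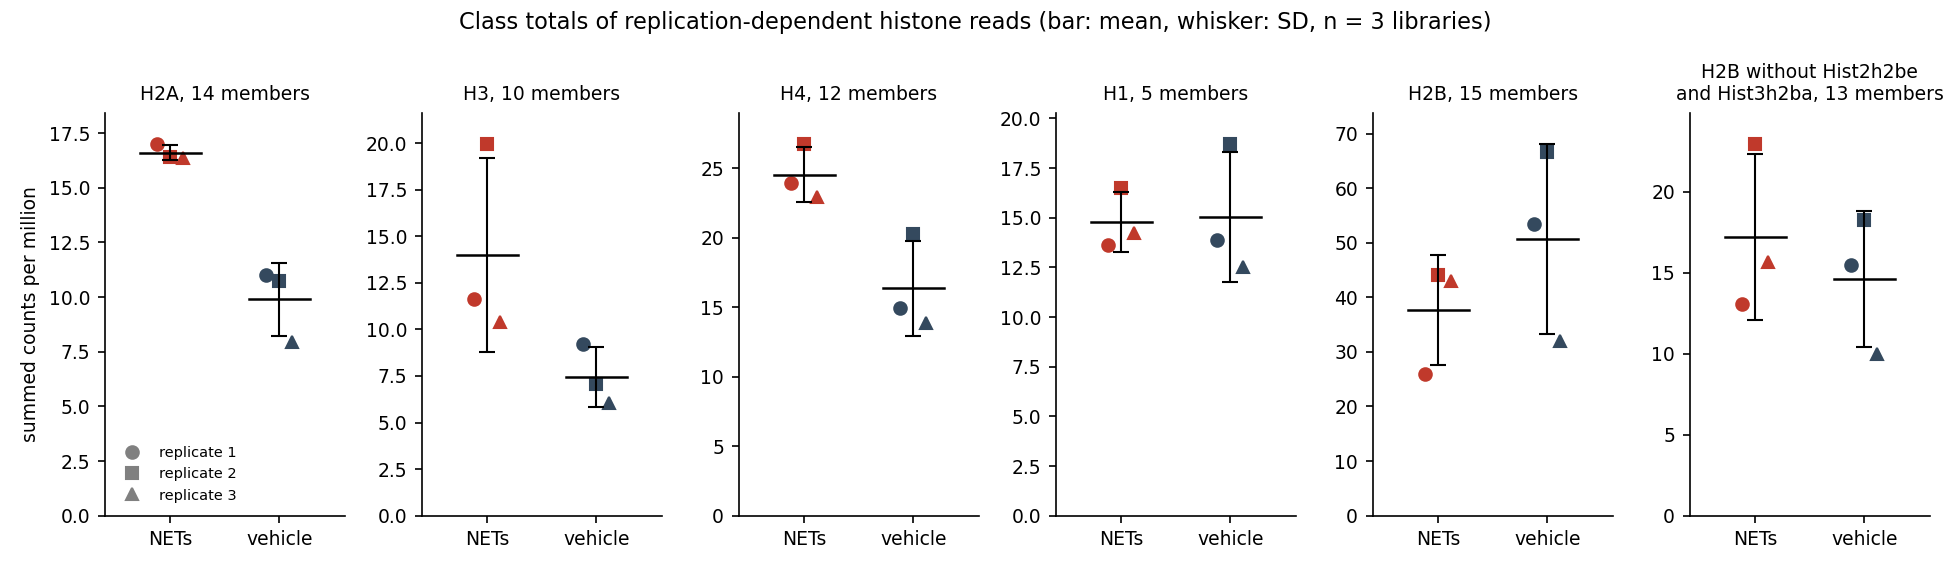
Summed CPM of each histone class in each library, with the mean and SD (n = 3 libraries per group) and a separate axis per class, each from 0. H2A, H3 and H4 totals of all NETs libraries lie above all vehicle libraries, H1 and H2B totals overlap, and the H2B total without Hist2h2be and Hist3h2ba was 17.2 ± 5.13 CPM in NETs libraries and 14.6 ± 4.20 CPM in vehicle libraries.

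The make-up of the histone reads by class differed in the same way. H2B took 28.2%, 35.6% and 40.2% of the histone reads in NETs replicates 1 to 3, against 52.1%, 54.0% and 44.3% in vehicle replicates 1 to 3. H2A took 18.4%, 13.3% and 15.3% in the NETs libraries, against 10.7%, 8.70% and 10.99% in the vehicle libraries. The H3 and H4 shares were also higher in every NETs library than in any vehicle library, at 12.6%, 16.1% and 9.72% for H3 in NETs libraries, against 8.996%, 5.75% and 8.33% in vehicle libraries. For H4 they were 26.0%, 21.6% and 21.5% in NETs libraries, against 14.6%, 16.4% and 19.1% in vehicle libraries. Shares within one library sum to the whole, so a lower H2B share raises the others.

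All 10 H3 genes, which encode the near-identical replication-dependent H3 proteins, had log2 fold changes above 0, with a median of 0.96. Hist1h3c, the H3 gene with most reads, had 3.96, 5.44 and 4.37 CPM in NETs replicates 1 to 3, against 3.22, 1.92 and 1.55 CPM in vehicle replicates 1 to 3. The groups did not overlap, and the log2 fold change was 1.04 (SE 0.33, adjusted p = 0.240). Hist1h3a had 1.11, 2.56 and 1.69 CPM in the NETs libraries, against 0.858, 0.383 and 0.746 CPM in the vehicle libraries. Here too the groups did not overlap, with a log2 fold change of 1.43 with an SE of 0.53 (adjusted p = 0.286). Hist1h3i had 1.57, 2.12 and 0.408 CPM in the NETs libraries, against 0.482, 0.639 and 0.497 CPM in the vehicle libraries. NETs replicate 3 lay below all vehicle libraries, and the log2 fold change was 1.35 (SE 0.62, adjusted p = 0.379). Hist1h3d had 13, 20 and 4 reads in the NETs libraries, against 3, 1 and 2 reads in the vehicle libraries. The groups did not overlap and the log2 fold change was 2.51 (SE 1.02, adjusted p = 0.313). Hist1h3e had 0.990, 3.42 and 1.92 CPM in the NETs libraries, against 1.72, 1.09 and 1.43 CPM in the vehicle libraries, and Hist1h3h had 1.75, 1.85 and 0.583 CPM in the NETs libraries, against 2.09, 1.28 and 0.186 CPM in the vehicle libraries. Both overlapped, with log2 fold changes of 0.59 for Hist1h3e (SE 0.48) and 0.23 for Hist1h3h (SE 0.66). Of the remaining 4 genes Hist1h3g also had NETs libraries wholly above vehicle libraries, with 11, 13 and 10 reads in NETs libraries and 3, 8 and 7 reads in vehicle libraries. Hist1h3b and Hist1h3f, with 39 and 75 reads in all, overlapped between the groups, and so did Hist2h3c2, with 7 reads in NETs libraries and 1 in vehicle libraries.

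Of the 12 H4 genes, which encode the same H4 protein, 11 had log2 fold changes above 0, with a median of 0.52. Hist1h4i was the most abundant of them and the best measured. It had 12.2, 11.2 and 12.8 CPM in NETs replicates 1 to 3, against 7.08, 10.2 and 6.59 CPM in vehicle replicates 1 to 3. The groups did not overlap, with vehicle replicate 2 nearest to the NETs libraries, and the log2 fold change was 0.61 (SE 0.21, adjusted p = 0.265). Leaving out any one library kept this value between 0.49 and 0.84. Hist1h4j had 24, 10 and 16 reads in the NETs libraries, against 0, 1 and 2 reads in the vehicle libraries. Pooled over libraries and scaled to depth, its reads were 15.9 times as frequent in NETs libraries, with a 95% counting interval of 5.15 to 79.9, and its adjusted p was 0.0975. With no filter beyond 1 read, the test over 24780 genes did call Hist1h4j, among 322 genes (1.3%). Hist1h4j met the minimum of 5 reads only through NETs libraries, so these values are a description. The interval covers counting error only and leaves out the spread between libraries. Hist1h4c also separated, with 1.16, 1.196 and 1.11 CPM in the NETs libraries, against 0.536, 1.02 and 0.497 CPM in the vehicle libraries. Its log2 fold change was 0.77 (SE 0.53, adjusted p = 0.558).

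The other H4 genes averaging 1 CPM or more overlapped between the groups. Hist2h4 had 2.62, 2.83 and 2.39 CPM in the NETs libraries, against 1.18, 2.30 and 2.80 CPM in the vehicle libraries (log2 fold change 0.34, SE 0.39). Hist1h4d had 1.81, 3.91 and 2.22 CPM in the NETs libraries, against 2.57, 1.597 and 0.932 CPM in the vehicle libraries (log2 fold change 0.64, SE 0.44). NETs replicate 2 was the highest library for both Hist1h4d and Hist1h4h, which had 1.81, 2.83 and 0.933 CPM in the NETs libraries, against 1.13, 1.09 and 1.06 CPM in the vehicle libraries (log2 fold change 0.78, SE 0.49). Hist1h4k had 2.15, 2.07 and 1.22 CPM in the NETs libraries, against 1.29, 1.79 and 1.06 CPM in the vehicle libraries (log2 fold change 0.41, SE 0.44). The 5 genes left, Hist1h4m, Hist1h4f, Hist4h4, Hist1h4n and Hist1h4a, held between 23 and 45 reads each. Hist1h4n was the H4 gene with a value below 0, with 6 reads in NETs libraries and 18 in vehicle libraries.

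Among the 14 H2A genes, 10 had log2 fold changes above 0, with a median of 0.57, and 4 had NETs libraries wholly above vehicle libraries. Hist1h2ag had 3.79, 1.79 and 3.62 CPM in NETs replicates 1 to 3, against 1.501, 0.894 and 1.12 CPM in vehicle replicates 1 to 3. The groups did not overlap, and the log2 fold change of 1.39 (SE 0.42, adjusted p = 0.226) stayed between 1.21 and 1.66 when any one library was left out. Hist1h2ae had 3.20, 3.15 and 2.62 CPM in the NETs libraries, against 2.30, 0.447 and 1.24 CPM in the vehicle libraries. The vehicle libraries were spread widely, and the log2 fold change was 1.16 (SE 0.47, adjusted p = 0.324). Hist1h2ai had 3.49, 3.70 and 3.09 CPM in the NETs libraries, against 2.30, 1.98 and 1.43 CPM in the vehicle libraries. Its log2 fold change was 0.85 (SE 0.33, adjusted p = 0.310). Hist1h2af had 6, 27 and 10 reads in the NETs libraries, against 0, 1 and 3 reads in the vehicle libraries. Its pooled reads were 10.3 times as frequent in NETs libraries (95% counting interval 3.74 to 39.4), and the adjusted p was 0.188.

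Hist1h2ak and Hist3h2a were the other H2A genes averaging 1 CPM or more. Hist1h2ak had 0.932, 1.79 and 1.57 CPM in the NETs libraries, against 0.429, 0.766 and 1.12 CPM in the vehicle libraries, with overlap through vehicle replicate 3 (log2 fold change 0.91, SE 0.54). Hist3h2a, outside the chromosome 13 cluster, had 2.62, 1.52 and 3.15 CPM in the NETs libraries, against 2.84, 2.68 and 1.31 CPM in the vehicle libraries (log2 fold change 0.10, SE 0.41). It overlaps Trim17 by position, which held 140 reads in all. The other 8 genes held 9 to 75 reads, and all 8 overlapped between the groups. All 14 H2A genes share their position with another annotated gene, mostly a predicted microRNA gene without reads, and use of strand in counting is not given in the sources used here.

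Among the 15 H2B genes, the 2 with most reads had lower values in NETs libraries, while 9 of the 15 had log2 fold changes above 0. Hist2h2be, known in mouse olfactory neurons as the replacement-type variant H2BE, had 8.10, 15.5 and 20.6 CPM in NETs replicates 1 to 3, against 28.03, 34.6 and 16.1 CPM in vehicle replicates 1 to 3. NETs replicate 3 lay above vehicle replicate 3, so the groups overlapped, and the log2 fold change was -0.82 (SE 0.37, adjusted p = 0.405). Hist3h2ba had 4.83, 5.60 and 6.65 CPM in the NETs libraries, against 9.92, 13.7 and 5.97 CPM in the vehicle libraries. Vehicle replicate 3 again lay among the NETs libraries, and the log2 fold change was -0.78 (SE 0.28, adjusted p = 0.275). Without vehicle replicate 3, Hist3h2ba passed the threshold, as 1 of 404 genes called among 13900 (2.91%). Hist1h2bc, next in reads within the class, had 4.60, 7.12 and 6.47 CPM in the NETs libraries, against 4.93, 9.52 and 4.97 CPM in the vehicle libraries, with a log2 fold change of -0.08 (SE 0.29). Without Hist2h2be and Hist3h2ba, a choice made after their values were seen, the H2B sum was 1.18 times as high in NETs as in vehicle libraries, with overlapping groups.

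Hist1h2bg, by contrast, had 1.57, 2.01 and 0.525 CPM in NETs libraries, against 0.107, 0.383 and 0.684 CPM in vehicle libraries. NETs replicate 3 overlapped with vehicle replicate 3, and the log2 fold change was 1.82 (SE 0.70, adjusted p = 0.297). Hist1h2bb had 6, 9 and 7 reads in the NETs libraries, against 2, 1 and 0 reads in the vehicle libraries, without overlap; its reads were 7.01 times as frequent in NETs libraries (95% counting interval 2.11 to 36.6). Hist1h2bj, Hist1h2bk and Hist1h2be were the other H2B genes averaging 1 CPM or more. Hist1h2bj had 2.04, 3.97 and 2.33 CPM in the NETs libraries, against 2.68, 1.09 and 0.995 CPM in the vehicle libraries (log2 fold change 0.81, SE 0.45). Hist1h2bk had 1.05, 2.72 and 0.816 CPM in the NETs libraries, against 1.39, 1.28 and 0.435 CPM in the vehicle libraries (log2 fold change 0.57, SE 0.58). Hist1h2be had 2.15, 3.21 and 1.52 CPM in the NETs libraries, against 2.14, 3.002 and 1.62 CPM in the vehicle libraries (log2 fold change 0.04, SE 0.40), and its annotated span overlaps that of Hist1h1e, so their reads may be shared. All 3 overlapped between the groups, as did the other 7 H2B genes, which held 6 to 105 reads each.

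Of the 5 linker histone H1 genes, 3 had log2 fold changes above 0 and none separated the groups. Hist1h1c, which encodes H1.2 and is the main H1 gene here, had 9.26, 8.54 and 8.86 CPM in NETs replicates 1 to 3, against 9.65, 13.3 and 8.52 CPM in vehicle replicates 1 to 3 (log2 fold change -0.23, SE 0.21, adjusted p = 0.671). Vehicle replicate 2 was its highest library. Hist1h1e, which encodes H1.4, had 2.50, 5.16 and 1.87 CPM in the NETs libraries, against 2.14, 2.68 and 2.42 CPM in the vehicle libraries (log2 fold change 0.41, SE 0.39). Hist1h1d, which encodes H1.3, had 0.932, 1.79 and 1.87 CPM in the NETs libraries, against 0.911, 1.28 and 0.870 CPM in the vehicle libraries (log2 fold change 0.60, SE 0.49). Hist1h1b and Hist1h1a held 77 and 40 reads.

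**Figure D3:**
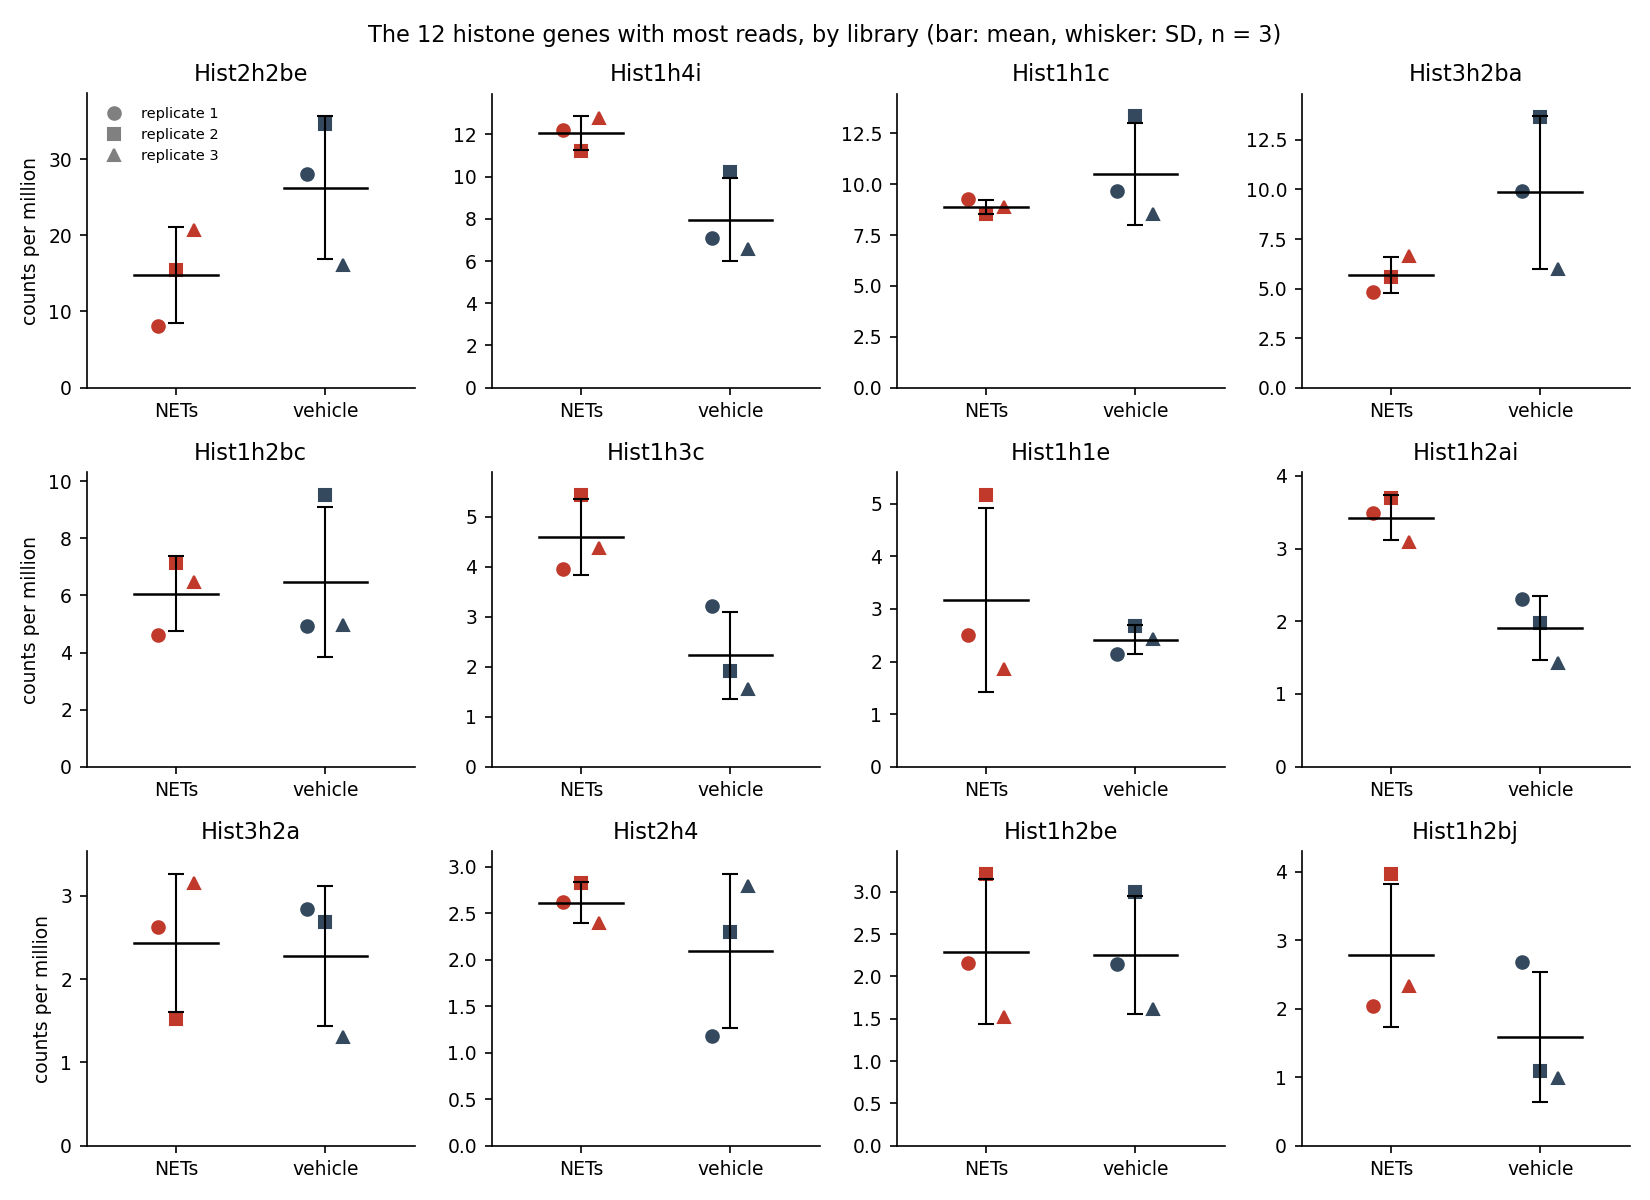
CPM of the 12 histone genes with most reads, by library, with the mean and SD (n = 3 per group) and a separate axis per gene, each from 0. Hist1h4i, Hist1h3c and Hist1h2ai have all NETs libraries above all vehicle libraries, while in Hist2h2be and Hist3h2ba vehicle replicates 1 and 2 lie above the NETs libraries and vehicle replicate 3 does not.

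By location, the 48 genes of the Hist1 cluster on chromosome 13 summed to 73.3, 96.3 and 73.5 CPM in NETs replicates 1 to 3, against 60.1, 68.7 and 45.6 CPM in vehicle replicates 1 to 3, without overlap. The 8 genes on other chromosomes summed to 18.9, 27.3 and 33.4 CPM in the NETs libraries, against 42.3, 54.7 and 26.8 CPM in the vehicle libraries, with overlap. The ratio of group means was 1.39 in the Hist1 cluster and 0.642 outside it, where Hist2h2be and Hist3h2ba hold most reads. Counted by gene, 38 of the 48 had log2 fold changes above 0 (median 0.61), and so did 5 of the 8 (median 0.13). These sums were set side by side after the values were seen and were not tested.

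The genes also differ in how their annotated transcripts end. The stem-loop lies within 100 bases of the transcript's end in 19 genes. In another 21 the model runs on for more than 100 bases, and 10 of these 21 carry a polyadenylation signal (AATAAA or ATTAAA) in their last 60 bases, against 1 of the 19. Hist1h2ag ends 23 bases after its stem-loop and Hist1h3c 74 bases after it, while Hist1h4i runs on for 330 bases, Hist1h4j for 385 and Hist1h1c for 840. Hist2h2be has no stem-loop in its single model of 2620 bases, which ends with such a signal. The 19 genes that end near the stem-loop summed to 17.8, 25.3 and 18.8 CPM in NETs replicates 1 to 3, against 14.6, 12.2 and 8.77 CPM in vehicle replicates 1 to 3, a ratio of 1.74 without overlap. The 21 genes that run on summed to 49.9, 59.7 and 50.3 CPM in the NETs libraries, against 46.4, 56.9 and 36.9 CPM in the vehicle libraries, a ratio of 1.14 with overlap. Most single genes of both groups had values above 0, with 16 of 19 above 0 (median log2 fold change 0.78) and 17 of 21 above 0 (median 0.60). The 11 genes whose models lack 3′ untranslated sequence summed to 11.6 ± 2.27 CPM in NETs libraries and 7.44 ± 1.96 CPM in vehicle libraries (SD, n = 3 each), with 9 of 11 above 0. The remaining 5, with bases after the stop codon but no stem-loop, are Hist2h2be, Hist1h2bc, Hist1h1a, Hist1h2ah and Hist1h2af. In Hist1h2ah and Hist1h2af only 2 and 1 bases follow the stop codon, too few to hold a stem-loop. These 5 genes summed to 13.7, 24.5 and 27.9 CPM in the NETs libraries, against 33.4, 45.3 and 21.5 CPM in the vehicle libraries. Of the 5, 1 was above 0, Hist1h2af. The groups by transcript end were formed after the values were seen, differ in their class make-up and rest on the annotation, not on the ends of the RNA in these cells.

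**Figure D4:**
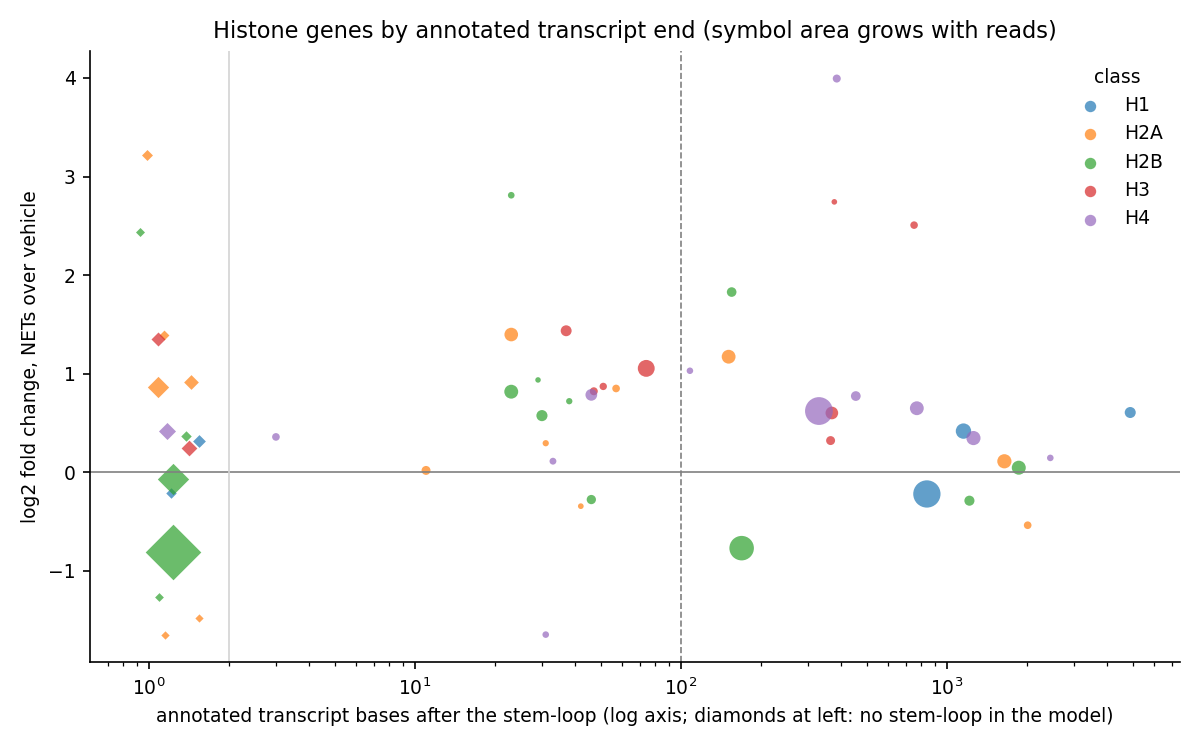
Log2 fold change (NETs over vehicle) of each histone gene against the number of annotated transcript bases after its stem-loop, on a log axis, with genes that have no stem-loop as diamonds at the left; symbol area grows with reads, colours are classes, the dashed line marks 100 bases, and genes with 3 reads or fewer in a group are at their pooled read ratio. Most genes lie above 0 on both sides of 100 bases, with medians of 0.78 for the 19 that end sooner and 0.60 for the 21 that run on.

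Histone genes often start back to back, so that one promoter region serves a pair. Among the 56 genes 11 such pairs were found. Hist1h2ae and Hist1h2bg start 175 bases apart, and both had unadjusted p-values under 0.05 with log2 fold changes of 1.16 and 1.82. Hist1h2ag and Hist1h2bj start 269 bases apart and held 220 and 231 reads, with log2 fold changes of 1.39 (SE 0.42) and 0.81 (SE 0.45). Hist2h2ac and Hist2h2be start 238 bases apart, yet Hist2h2be held 2102 reads and Hist2h2ac 45, with log2 fold changes of -0.82 (SE 0.37) and 0.85 (SE 0.97). So genes of one pair could hold like or very unlike numbers of reads. The promoter of Hist1h2bg, shared with Hist1h2ae, and that of Hist1h4i, the best-measured gene with higher values, are printed 5′ to 3′ from RefSeq (GRCm38.p6), from 250 bases before to 50 after the gene start. Capitals mark CCAAT, the box bound by NF-Y, TATAA, the TATA box, and ATTTGCAT, the octamer bound by Oct-1 and known from H2B promoters, each on either strand.
Hist1h2bg: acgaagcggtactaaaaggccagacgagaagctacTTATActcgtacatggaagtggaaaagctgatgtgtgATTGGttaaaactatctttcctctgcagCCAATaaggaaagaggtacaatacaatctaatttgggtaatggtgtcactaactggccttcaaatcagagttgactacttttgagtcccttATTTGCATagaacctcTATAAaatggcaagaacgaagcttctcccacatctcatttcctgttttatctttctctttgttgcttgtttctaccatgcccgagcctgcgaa
Hist1h4i: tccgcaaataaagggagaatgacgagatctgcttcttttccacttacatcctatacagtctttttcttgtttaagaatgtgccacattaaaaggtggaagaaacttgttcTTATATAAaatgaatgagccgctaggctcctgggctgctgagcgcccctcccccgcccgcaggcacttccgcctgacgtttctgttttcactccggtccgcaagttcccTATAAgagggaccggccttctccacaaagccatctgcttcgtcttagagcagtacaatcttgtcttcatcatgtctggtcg
The first lies at chr13:23571150-23571449 on the plus strand and the second at chr13:22041313-22041612 on the minus strand. Matches that overlap on opposite strands, as in TTATATAA, were counted separately, and the windows reach into the first transcribed bases. Promoters were found for 49 of the 56 genes. CCAAT was present in 41 of them (83.7%), against 37.4% of all 32851 promoters: it was in every H1, H2A, H2B and H3 promoter matched but in 3 of 11 H4 promoters. TATAA was present in 38 (77.6%), against 24.9% of all promoters. The octamer was present in 10 (20.4%), against 1.74% of all promoters, with 6 of 13 H2A and 4 of 12 H2B promoters and none of the other classes. Whether any of these motifs had a part in the histone values was not tested.

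Near-identical sequence limits what single genes show. Of the 50-base stretches of a histone gene's transcripts, a median of 48.2% also occur in transcripts of another gene, and 25 of the 56 genes share more than 50%. Hist1h2ai shares 90.1%, Hist1h3i 87.6% and Hist1h2ag 78.9%, while Hist1h4i shares 28.9%, Hist1h4j 24.6%, Hist3h2ba 22.1% and Hist2h2be none. The rows that failed the minimum share more, with a median of 73.7%. How reads with several matches were counted is not given in the sources used here, so levels of the genes that share most are uncertain.

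Other RNA classes that lack poly(A) tails, or that come from noncoding rows of the table, were set beside the histone sums. Rows annotated as rRNA, nearly all from CT010467.1, summed to 1206, 2069 and 1258 CPM in NETs replicates 1 to 3, against 947, 963 and 875 CPM in vehicle replicates 1 to 3. Rows annotated as miRNA, mainly Gm23935, summed to 577, 1099 and 702 CPM in the NETs libraries, against 410, 403 and 400 CPM in the vehicle libraries. Both classes were higher in every NETs library, with ratios of 1.63 and 1.96. NETs replicate 2 was highest in both, as it was for the H3 and H4 sums. CT010467.1 alone held 1199, 2062 and 1251 CPM in the NETs libraries, against 938, 956 and 868 CPM in the vehicle libraries. Gm23935 alone held 501, 1026 and 629 CPM in the NETs libraries, against 329, 331 and 332 CPM in the vehicle libraries. Without its leading row, neither class was higher in every NETs library than in all vehicle libraries. The H2A, H3 and H4 genes together summed to 55.1 ± 7.07 CPM in NETs libraries and 33.7 ± 5.26 CPM in vehicle libraries (SD, n = 3 each), a ratio of 1.64. These are the histone classes that separated the groups, and all 56 histone genes together had a ratio of 1.08, with overlap. Other noncoding RNA classes overlapped. Rows annotated as snRNA averaged 20.4 ± 1.62 CPM in NETs libraries and 28.4 ± 5.40 CPM in vehicle libraries, and rows annotated as snoRNA averaged 46.1 ± 3.33 CPM in NETs libraries and 50.3 ± 4.87 CPM in vehicle libraries (SD, n = 3 each). Whether the amount of RNA without poly(A) tails that entered the libraries had a part in the histone values was not tested. Of 15 single noncoding RNAs listed, such as the RNA of RNase MRP, 13 were matched and Rn7sk, the regulator of transcription elongation 7SK, passed the stricter filter, with 19.5, 26.7 and 20.4 CPM in the NETs libraries and 13.6, 22.5 and 14.7 CPM in the vehicle libraries.

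**Figure D5:**
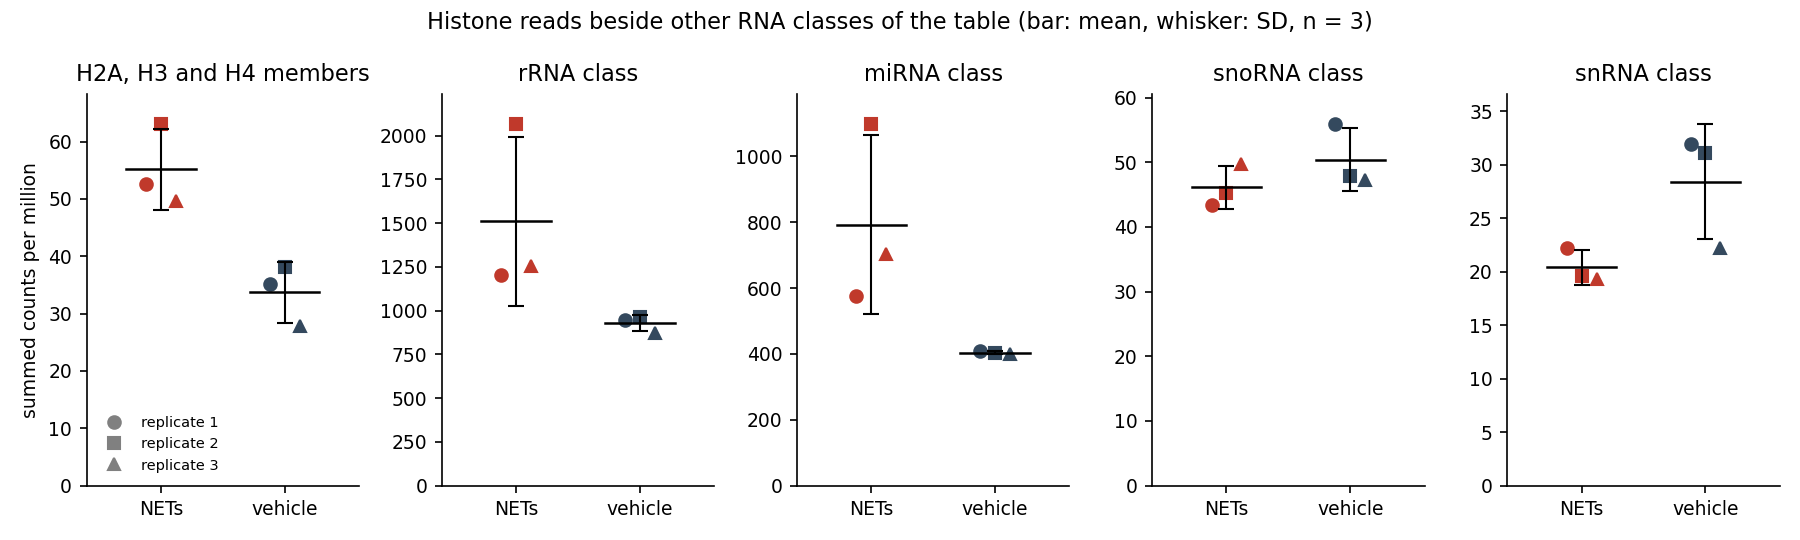
Summed CPM of the H2A, H3 and H4 histone genes and of table rows annotated as rRNA, miRNA, snoRNA and snRNA, by library, with the mean and SD (n = 3 per group) and a separate axis per panel, each from 0. Histone, rRNA and miRNA sums of all NETs libraries lie above all vehicle libraries, and NETs replicate 2 is the highest library in each of these. The histone classes shown are those that separated the groups, and the rRNA and miRNA sums rest mainly on CT010467.1 and Gm23935. The snoRNA and snRNA sums overlap.

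Of the 25 listed genes that make and process histone mRNA, all tested, 0 passed the threshold, 18 had log2 fold changes above 0 (50.2% of all genes of that fit) and the median was 0.09. At an unadjusted p under 0.05, 4 had higher values (6.72% of all genes) and 3 had lower values (6.06% of all genes). NETs libraries lay wholly above vehicle libraries for 4 of the 25 (Snrpd3, Snrpf, Snrpg and Ncbp2, against 7.68% of all genes) and wholly below for 3 (Tut4, Hinfp and Pou2f1, against 9.04% of all genes). DESeq2 called 1 of the 25, Snrpb (121 of all 8780 genes with an adjusted p), and limma-voom 0. Slbp, which binds the stem-loop, had 207.7, 240.4 and 211.1 CPM in NETs replicates 1 to 3, against 199.9, 181.2 and 210.9 CPM in vehicle replicates 1 to 3, with a log2 fold change of 0.17 with an SE of 0.09 (adjusted p = 0.438). Npat, the coactivator of histone gene transcription, averaged 63.0 ± 10.4 CPM in NETs libraries and 67.1 ± 2.94 CPM in vehicle libraries, and Casp8ap2 (FLASH), which acts in histone mRNA 3′ processing, 125.7 ± 15.05 CPM in NETs libraries and 121.8 ± 19.0 CPM in vehicle libraries (SD, n = 3 each). Both differences were within the spread. The U7-specific ring proteins averaged 13.8 ± 1.29 CPM in NETs libraries and 11.3 ± 1.42 CPM in vehicle libraries for Lsm10, and 35.2 ± 1.95 CPM in NETs libraries and 33.0 ± 2.85 CPM in vehicle libraries for Lsm11. Zfp473 (ZFP100), which bridges SLBP and U7, averaged 11.7 ± 1.51 CPM in NETs libraries and 15.2 ± 4.68 CPM in vehicle libraries, and Eri1, the exonuclease that trims and degrades the stem-loop end, 176.2 ± 3.24 CPM in NETs libraries and 172.4 ± 9.39 CPM in vehicle libraries. Adjusted p-values of these 7 genes lay between 0.438 and 0.869. The smallest p-values on the list belonged to the Sm ring proteins Snrpd3 (log2 fold change 0.39), Snrpf (0.51) and Snrpb (0.47), each with an adjusted p of 0.223. The 3 with lower values at an unadjusted p under 0.05 were Tut4, a terminal uridylyltransferase, Hinfp, a factor that binds H4 promoters, and Pou2f1, which encodes the Oct-1 that binds the octamer. Tut4 averaged 159.997 ± 10.9 CPM in NETs libraries and 191.6 ± 0.337 CPM in vehicle libraries (SD, n = 3 each), and its log2 fold change was -0.25 (adjusted p = 0.252). Hinfp averaged 57.4 ± 2.10 CPM in NETs libraries and 69.9 ± 9.20 CPM in vehicle libraries (log2 fold change -0.27, adjusted p = 0.310). Pou2f1 averaged 64.8 ± 5.01 CPM in NETs libraries and 79.2 ± 6.05 CPM in vehicle libraries (log2 fold change -0.28, adjusted p = 0.271).

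The histone genes listed here as replication-independent are counted by the same tests. Whether the mRNAs of these genes, H2afx among them, end in a stem-loop or a poly(A) tail was not tested. Of 11 tested, 0 passed the threshold, 9 had log2 fold changes above 0 (50.2% of all genes of that fit), and the median was 0.15. At an unadjusted p under 0.05, 2 had higher values (6.72% of all genes) and 0 had lower values (6.06% of all genes). DESeq2, with an adjusted p for 9 of the 11, called H2afz (121 of all 8780 genes with an adjusted p), and limma-voom called 0. H2afz, the gene of H2A.Z, had 740, 590 and 701 CPM in NETs replicates 1 to 3, against 521, 467 and 567 CPM in vehicle replicates 1 to 3, without overlap (log2 fold change 0.40, SE 0.10, adjusted p = 0.223). The H3.3 genes H3f3a and H3f3b, whose product is laid down outside replication, also had NETs libraries wholly above vehicle libraries, with log2 fold changes of 0.15 and 0.16 and adjusted p-values of 0.449 and 0.405. H2afx, the gene of H2A.X, averaged 320.9 ± 39.1 CPM in NETs libraries and 291.1 ± 19.9 CPM in vehicle libraries (log2 fold change 0.15). H2afv, H2afy, H2afj and H1f0 had log2 fold changes of 0.07, 0.08, 0.25 and 0.13, all with overlap. H2afy2, with 55 reads in all, had a log2 fold change of 1.91 with an SE of 0.67 (adjusted p = 0.271) and separated the groups. With H2afz, H3f3a and H3f3b, that makes 4 of the 11 with NETs libraries wholly above vehicle libraries (7.68% of all genes). For 0 of the 11 they lay wholly below (9.04% of all genes). Cenpa, the centromeric H3, and H1fx had values below 0, at -0.20 (SE 0.12) and -0.35 (SE 0.30).

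Genes of DNA replication and histone deposition had small log2 fold changes, mostly above 0. All 30 S phase genes had log2 fold changes above 0, where 50.2% of all genes of that fit did, with a median of 0.20; 0 passed the threshold, and at an unadjusted p under 0.05, 12 had higher values in NETs libraries (6.72% of all genes) and 0 had lower values (6.06% of all genes). DESeq2 called 1 of the 30, Gins2 (121 of all 8780 genes with an adjusted p), and limma-voom 0. Their sums were 7371, 7315 and 6387 CPM in NETs replicates 1 to 3, against 6056, 5154 and 6735 CPM in vehicle replicates 1 to 3, so the groups overlapped through NETs replicate 3 and vehicle replicate 3. The smallest p-values were those of Gins2, a subunit of the replicative helicase complex (0.52, SE 0.14), Ccne1, cyclin E1 (0.38, SE 0.10), and Pcna, the sliding clamp (0.35, SE 0.10), each with an adjusted p of 0.223. Of 21 histone chaperones tested, 18 had values above 0 (50.2% of all genes) with a median of 0.14, and 0 passed the threshold. Limma-voom called none of the 21, and DESeq2 none of the 20 that it gave an adjusted p. At an unadjusted p under 0.05, 6 had higher values (6.72% of all genes) and 0 had lower values (6.06% of all genes). Mcm2, a helicase subunit that also binds H3 and H4, had a log2 fold change of 0.40 with an SE of 0.12 (adjusted p = 0.227), Ssrp1 of the FACT complex 0.26 (SE 0.10), and Asf1b, an H3 and H4 chaperone, 0.21 (SE 0.09). Whether the share of cells in S phase had a part in the histone values was not tested.

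Among markers of other cells, 14 lymphoid, myeloid and red cell genes summed to 68.0, 74.9 and 79.0 CPM in NETs replicates 1 to 3, against 70.5, 60.7 and 62.4 CPM in vehicle replicates 1 to 3. Lyz2, the lysozyme of macrophages and neutrophils, held the most reads of these, with 30.7, 38.8 and 38.5 CPM in the NETs libraries, against 30.1, 19.4 and 21.0 CPM in the vehicle libraries (log2 fold change 0.63, SE 0.16, adjusted p = 0.223). Its values did not overlap between the groups. DESeq2, with an adjusted p for 2 of the 14, called it (121 of all 8780 genes with an adjusted p). Of the 11 tested by edgeR, 0 passed the threshold, and 5 had log2 fold changes above 0 (50.2% of all genes). The median was -0.15. At an unadjusted p under 0.05, 1 had higher values (6.72% of all genes) and 0 had lower values (6.06% of all genes). Whether such cells had a part in the histone values was not tested.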

How the data were processed

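RNA of 6 libraries, 3 per group, was analysed. The values the authors deposited are raw whole-number counts for each Ensembl gene, in 2 tables with identical values, and FPKM (reads scaled by gene length and library, per the file headers). The submitters' processing notes name STAR, DESeq2 and the build mm9, without versions. The coordinates of all 70 histone rows were those of GENCODE M21 (GRCm38). Counting rules and strand use: not given in the sources used here. Counts were scaled by TMM (factors 0.988 to 1.01) and tested two-sided with edgeR 4.0.16 (quasi-likelihood, robust, no covariate) in R 4.3.3. The 32 histone genes kept by filterByExpr were read from that fit (13900 genes), and the other 24 from the fit on genes with at least 5 reads (20520 genes). Counts above 0, medians and separations use the latter fit. The Benjamini-Hochberg threshold was 0.05. Class sums are CPM without a test. Exact 95% intervals of read ratios cover counting error only. Genes averaging 1 CPM or more or an unadjusted p under 0.05 are given by library. The members, lists and rules were chosen with earlier results of these data known. Alternatives were DESeq2 1.42.0, limma 3.58.1 on counts and on log2(FPKM + 1) or log2(FPKM + 0.1), other scalings and filters, a replicate block and leaving out each library. The fit was tested on simulated counts, with changes placed only in genes with more reads than most histone genes hold. It does not show how well changes in genes with few reads would be found.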

Additional observations from a re-analysis of the deposited data

How the results depend on the processing

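With 0 genes called by edgeR on 13900 genes, 0 of the 56 histone genes were called under every alternative run but those named here: no filter beyond 1 read gave 1 (Hist1h4j), and leaving out single libraries, with each gene read from the fit named for it in the methods, gave 0 to 3, the 3 without vehicle replicate 3 (Hist3h2ba, Hist1h4j and Hist1h2af). With all 56 read from the fit on 5 reads or more, leaving out that library gave 4, Hist1h2bg being the other. The 0 by DESeq2 covers 1 gene with an adjusted p, and without its independent filter, an alternative chosen after seeing the data, it covers all 56. Over all genes the calls numbered 121 by DESeq2 (8780 genes with an adjusted p), 52 by DESeq2 without that filter (13900 genes), 1 by limma-voom, 2 on log2(FPKM + 1), 2 on log2(FPKM + 0.1), 8 with a minimum of 5 reads, 322 with no filter beyond 1 read, and 0 to 404 with single libraries left out, the 404 without vehicle replicate 3. In the fit on 5 reads or more the last range was 1 to 1041, the 1041 without vehicle replicate 3, 108 without NETs replicate 2 and 61 without NETs replicate 3. Libraries with the same replicate number did not deviate together (r between -0.24 and -0.05). Pairs with different numbers had r between -0.24 and 0.31, highest for NETs replicate 3 with vehicle replicate 2. Deviations were taken from the means of each group, so these r values are not independent. A replicate block gave 0 calls among 13900 genes and 134 among 20520, none of them a histone gene.

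Leaving out single libraries gave log2 ratios of class sums from -0.14 to 0.16 for H1, 0.61 to 0.83 for H2A, -0.67 to -0.18 for H2B, 0.56 to 1.09 for H3, 0.48 to 0.77 for H4 and -0.07 to 0.30 for all genes. Without Hist1h1c the H1 value was 0.38 in place of -0.02. Without Hist2h2be and Hist3h2ba, an alternative chosen after seeing the data, it was 0.24 for H2B and 0.46 for all genes, in place of -0.43 and 0.11. H2A could not be given without genes that overlap others, since all 14 do.

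The number of the 56 genes with values above 0 ranged from 36 (without NETs replicate 2) to 48 (without vehicle replicate 2). For 33 genes no left-out library turned the sign, and 29 of these were above 0. The other 23 turned, with ranges of -0.48 to 0.35 for Hist1h1a, -0.32 to 0.58 for Hist1h1b, -0.13 to 0.67 for Hist1h1e, -0.36 to 0.23 for Hist1h2ab, -1.05 to 0.18 for Hist1h2ac, -3.89 to 0.21 for Hist1h2ad, -4.55 to 0.088 for Hist1h2ah and -4.74 to 3.13 for Hist1h2aj. They were -0.83 to 0.70 for Hist1h2ao, -0.26 to 0.31 for Hist1h2bc, -0.28 to 0.30 for Hist1h2be, -0.69 to 0.80 for Hist1h2bh, -0.14 to 0.86 for Hist1h2bk, -0.82 to 0.21 for Hist1h2bm, -1.12 to 0.94 for Hist1h2bn and -0.67 to 1.43 for Hist1h2bp. The last were -1.41 to 0.86 for Hist1h3f, -0.27 to 0.92 for Hist1h3h, -0.65 to 1.13 for Hist1h4f, -0.22 to 1.63 for Hist2h2ac, -0.18 to 0.35 for Hist3h2a, -1.95 to 0.25 for Hist3h2bb-ps and -0.86 to 0.71 for Hist4h4.

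Other alternatives turned 5 genes from above to below 0. Hist1h2ab came to -0.0073 without TMM, -0.015 by limma-voom, -0.0020 on log2(FPKM + 1), -0.0011 on log2(FPKM + 0.1) and -0.0072 with the replicate block. By limma-voom the values were -0.59 for Hist4h4, -0.71 for Hist1h2bn, -0.56 for Hist1h3f and -0.44 for Hist1h4f. On log2(FPKM + 0.1) they were -0.056 for Hist4h4, -0.64 for Hist1h2bn, -0.36 for Hist1h3f and -0.32 for Hist1h4f. With the replicate block they were -0.40 for Hist4h4, -0.28 for Hist1h2bn, -0.32 for Hist1h3f and -0.13 for Hist1h4f, and on log2(FPKM + 1) Hist1h2bn was at -0.011. The cause was not tested. Depth limits the genes with few reads most, since 31 of the 56 held under 100 reads in all.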
